A study of Mus musculus with 4 samples.

Results

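The cells described here were epithelial cells of mouse lung tumours that stood high for 3 transcripts, Rbp4, Agr2 and Phgr1. A cell barcode was kept when it held at least 2000 unique molecular identifiers (UMIs, the counted RNA molecules) and at most 20% mitochondrial UMIs. It was taken as epithelial when Epcam, Cdh1, Krt8, Krt18 and Cldn18 together gave at least 2 UMIs and Ptprc, Cdh5 and Col1a2 gave 0. Members were then chosen by their own measured counts, with Rbp4, Agr2 and Phgr1 summing to at least 10 per 10000 UMIs of the cell and Lyz1 and Retnla to less than 5. In all, 1439 cells met the rule, of 15189 epithelial-gated cells and 29367 barcodes. The 12616 epithelial cells that met the Lyz1 and Retnla limit but not the sum of the 3 genes are called the rest.

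Rbp4 encodes the retinol-binding protein that carries vitamin A in plasma and is best known as a product of hepatocytes. Agr2 is a protein disulphide isomerase of the endoplasmic reticulum that secretory cells use to fold mucins, and Phgr1 is a small protein of the gut lining. None of the 3 is a classical product of alveolar type 2 cells, the surfactant-making cells in which these tumours are started. Hnf4a, the gene that the study's floxed allele concerns, is a nuclear receptor that drives many genes of liver and gut epithelium.

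All mice carried p53frt, Rosa-FSF-CreERT2 and Hnf4aflox alleles, and tumours were started by an adenovirus with FlpO recombinase under the mouse surfactant protein C promoter (mSPC), which directs it to type 2 cells. Tamoxifen, which activates CreERT2, or its vehicle was injected 10 weeks later, and macroscopic tumours were dissociated 2 weeks after that. Each suspension gave 1 library before and 1 after bead depletion of CD45+ and CD31+ cells, so the 4 groups held 1 library each and the portions of a treatment shared their tumours. The number of animals and tumours per suspension is not given in the sources used here, and age is not given either. Values for the 4 libraries are given below in the order vehicle before depletion, vehicle after depletion, labelled tamoxifen before depletion, labelled tamoxifen after depletion.

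Hnf4a, the targeted gene, did not fall with the tamoxifen label. Its level in the rest was 47.2, 48.6, 85.3 and 83.4 UMIs scaled to a common total of the summed cells (CPM), and in the members 108, 85.7, 114 and 103. The labels do not say which part of the gene is flanked, and a 3′ count outside that part does not check the deletion, so the libraries are called by their labels. The libraries held 92644997 to 144994771 UMIs in 6558 to 7867 barcodes, and any 2 libraries shared 10 to 18 barcodes, none of them a member in both. The 3 zero-count genes removed 72.1% and 71.3% of otherwise epithelial barcodes before depletion but 4.75% and 3.07% after it. With 1 library per group no difference between treatments has a replicate check, no p-value was computed, and intervals cover counting error only.

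The members were a larger share of the epithelial cells in the vehicle libraries than in those labelled tamoxifen. They numbered 78 of 872 cells (8.94%, exact binomial interval 7.14 to 11.04%) and 983 of 6357 (15.5%, 14.6 to 16.4%) in the vehicle libraries. In the libraries labelled tamoxifen they numbered 33 of 922 (3.58%, 2.48 to 4.99%) and 345 of 7038 (4.90%, 4.41 to 5.43%). Neither vehicle interval overlapped an interval of the libraries labelled tamoxifen. The share labelled tamoxifen was 0.400 times that of vehicle before depletion (0.269 to 0.595) and 0.317 times after it (0.282 to 0.357). From before to after depletion the share was 1.73 times higher in vehicle (1.39 to 2.15) and 1.37 times in the libraries labelled tamoxifen (0.965 to 1.94).

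**Figure D1:**
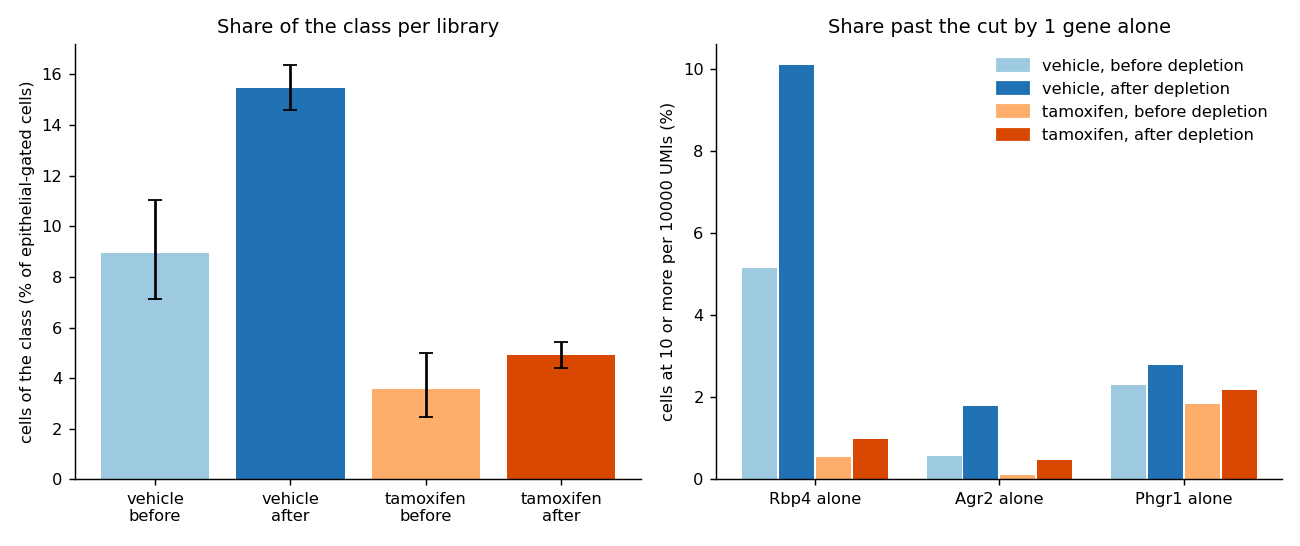
Bars give the share of epithelial-gated cells, in percent, that met the rule (left, with exact 95% binomial intervals) or that reached 10 per 10000 UMIs with 1 gene alone (right), for the 4 libraries. The left bars stand at 8.94, 15.5, 3.58 and 4.90%, and on the right the gap between treatments is wide for Rbp4 and narrow for Phgr1.

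The gap between treatments differed by gene and narrowed when the rule was loosened. With Rbp4 alone at 10 per 10000 UMIs, the shares were 5.16, 10.1, 0.542 and 0.995% of epithelial cells. With Phgr1 alone they were 2.29, 2.80, 1.84 and 2.19%, and with Agr2 alone 0.573, 1.79, 0.108 and 0.469%. The ratio labelled tamoxifen over vehicle was thus 0.105 and 0.0983 for Rbp4 alone but 0.804 and 0.782 for Phgr1 alone. At a sum of 5 per 10000 UMIs the ratio of shares was 0.773 and 0.554, and at 20 it was 0.294 and 0.220. When every cell was thinned to 2000 UMIs before the rule was applied, it was 0.900 before depletion and 0.529 after it. These ratios carry no intervals, and before depletion the Agr2 shares rest on 5 vehicle cells and 1 labelled tamoxifen.

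The members were deeper cells than the rest. Their median UMI count was 50100, 30529, 41214 and 25674, against 22590, 17423, 25670 and 16850 in the rest. Mitochondrial UMIs made up 3.63, 3.07, 3.54 and 3.46% of the summed UMIs of the members. Thinned to 2000 UMIs, 82.1, 88.6, 72.7 and 82.9% of the members still held at least 2 UMIs of the 3 genes (all did unthinned), against 6.20, 11.1, 9.11 and 8.10% of the rest (47.4, 56.0, 56.9 and 55.3% unthinned). Endothelial cells, which should lack these genes, gave 0, 0, 0 and 0.813% at the same depth, and 0 of 121 cells allows a share of up to 2.48% by a floor of 3 counts (3.00% by the exact binomial interval). Their own median UMI counts were 12089, 8170, 9251 and 7238.

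The sum was made of different genes under the 2 labels. Rbp4 (chr19:38116629-38125281, GRCm38) gave 53.9 and 55.9% of the members' UMIs of the 3 genes in vehicle, and 25.1 and 29.9% in the libraries labelled tamoxifen. Phgr1 (chr2:118772769-118778165) gave 30.7 and 24.4% in vehicle and 66.8 and 49.98% in the others, while Agr2 (chr12:35992907-36004087) gave 15.4, 19.8, 8.10 and 20.1%. These are 3′ UMI counts with no scaling for transcript length. Rbp4 was the largest of the 3 in 65.4 and 71.8% of vehicle members and in 30.3 and 28.7% of those labelled tamoxifen. Phgr1 led in 29.5, 18.7, 63.6 and 58.3% of members.

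**Figure D2:**
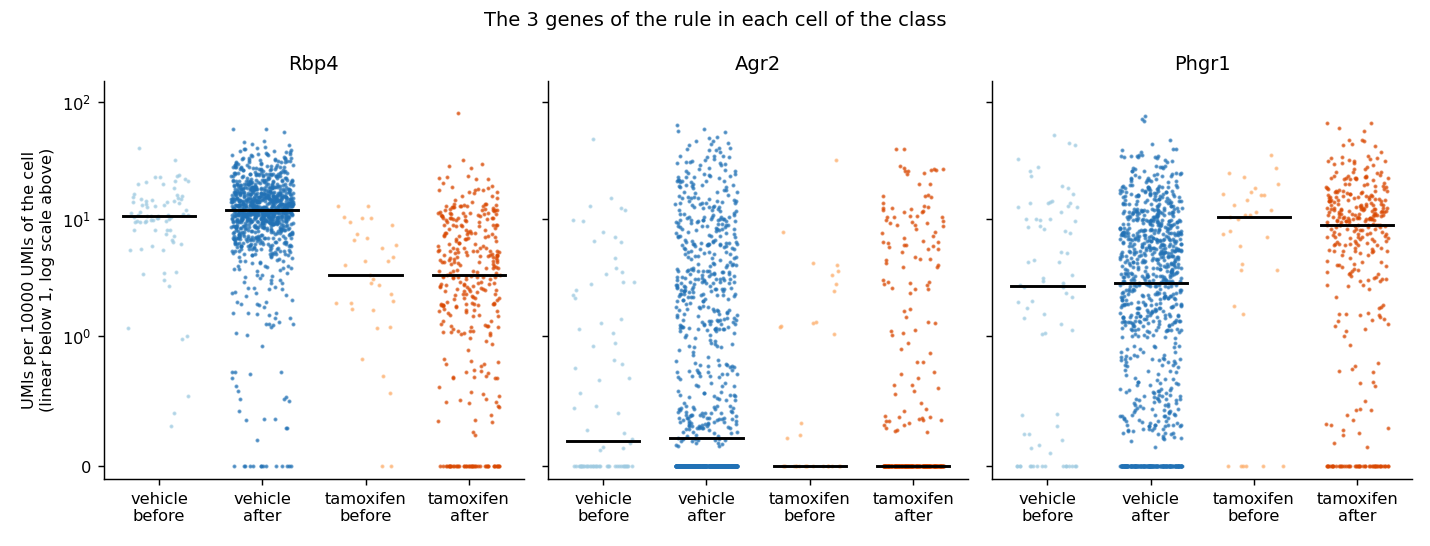
Each dot is 1 member, placed by its UMIs of Rbp4, Agr2 or Phgr1 per 10000 UMIs of the cell (linear below 1, log scale above), and black lines are medians. The Rbp4 medians are 10.7, 11.8, 3.33 and 3.31 in the 4 libraries, the Phgr1 medians run the other way at 2.69, 2.83, 10.4 and 8.80, and Agr2 is at 0 in many members.

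Single members differed widely in each gene. The median Rbp4 value is given with the plot of single cells, and the highest member reached 40.4, 59.0, 13.0 and 80.5 per 10000 UMIs. Agr2 was seen in 55.1, 51.5, 48.5 and 33.6% of members, so it was the gene most often missing. All 3 genes were detected in 44.9, 44.9, 42.4 and 28.7% of members. The members therefore shared the sum and not a fixed mixture.

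The rule cut through a continuous range. The highest cell left out stood at 9.77, 10.0, 9.96 and 10.0 per 10000 UMIs and the lowest member at 10.2, 10.0, 10.1 and 10.0. Between 8 and 10 lay 17, 209, 21 and 170 cells, and between 10 and 12 lay 17, 152, 9 and 96 members. Members at 20 or more made up 37.2, 42.6, 27.3 and 29.6%. The median sum was 16.5, 18.1, 15.1 and 14.9 in the members and 0.623, 1.37, 1.01 and 1.27 in the rest.

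Each gene was also read in cells chosen without it. Cells past the threshold on Rbp4 and Phgr1 had 24.3 and 25.2 times the Agr2 level of the other Lyz1-low cells in vehicle, and 4.23 and 4.94 times in the libraries labelled tamoxifen. Rbp4 in cells chosen on Agr2 and Phgr1 stood 4.199, 2.87, 1.46 and 1.59 times higher. Phgr1 in cells chosen on Rbp4 and Agr2 stood 6.08 and 3.55 times higher in vehicle and 0.895 and 2.87 times in the others, where the first of these rests on 7 cells. The 3 genes thus went together in both vehicle libraries by wider folds than in those labelled tamoxifen, except for the Phgr1 value after depletion, which was near its vehicle counterpart.

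Of the other marker genes proposed for the class, Gkn2 followed the label in every library and Scgb3a2 did not. Gkn2, a secreted product of gastric pit cells, stood at 3490, 4853, 9344 and 6236 CPM in the members and 1074, 1605, 1659 and 1752 CPM in the rest. In the library labelled tamoxifen before depletion, 2 cells gave 53.4% of those UMIs, and without each library's 2 highest cells the levels were 3150, 4740, 4356 and 5986 CPM. Scgb3a2, a secretoglobin of airway club cells, stood at 196, 252, 6.07 and 41.9 CPM in the members and 94.5, 135, 150 and 108 CPM in the rest. It was thus higher than the rest in vehicle, by 1.04 and 0.90 on the log2 scale, and lower in the libraries labelled tamoxifen, at -4.42 and -1.34. Only 3 members held Scgb3a2 in the library labelled tamoxifen before depletion, and 48 of 345 did after depletion.

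The Cre transcript of the Flp-activated allele was counted in members of every library. Its level was 2.54, 3.999, 3.04 and 2.89 CPM in the members and 2.53, 3.11, 3.42 and 3.24 CPM in the rest. Endothelial cells gave 0, 0.800, 0 and 1.12 CPM, with 0 or 1 UMI in each library, and the upper bounds of their exact Poisson intervals ran from 2.35 to 6.22 CPM. Members with a Cre UMI numbered 8, 106, 4 and 28. The flpO, GFP and Tdtomato features had 0 UMIs in members.

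Lists of other cell types stayed low, with few exceptions. Immune genes summed to 94.1, 28.6, 77.4 and 23.5 CPM in the members and 183, 18.9, 152 and 16.1 CPM in the rest. The endothelial list summed to 75.6, 68.7, 63.0 and 59.0 CPM, mostly from Pecam1 and Egfl7. Pecam1, which encodes the CD31 used for depletion, stood at 38.7, 33.6, 31.9 and 34.95 CPM in the members, above the 13.8, 16.7, 11.5 and 17.4 CPM of the rest in every library. Basal genes summed to at most 13.9 CPM, neuroendocrine genes to at most 7.38, erythroid genes to at most 0.512, ciliated genes to at most 59.4, and fibroblast and mural genes to at most 90.7. The club cell gene Scgb1a1 was at 1.02, 78.4, 0.759 and 8.87 CPM in the members and 17.1, 27.9, 33.9 and 39.2 in the rest. The part of free RNA or of other cells in these levels was not tested.

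The programme of the class was read as the ratio of summed CPM in members over the rest, on the log2 scale with 1 CPM added. A gene was called when it reached 20 CPM in either sum and stood 2-fold or more apart from the rest, in 1 direction, in both vehicle libraries. Genes of the rule and the gates were left out. A gene under 20 CPM in the rest entered through the members alone and could not be called lower. The reverse held for a gene under 20 CPM in the members. Of 6805 genes, 126 were called higher (1.85%) and 210 lower (3.09%). This is a description of size and no test, since the cells were selected on their counts.

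Plasma proteins of liver type were the list with the most members called higher. Of 24 genes on the list, 6 were considered and 5 called higher (Ttr, Alb, Apoa1, Apob and Gc), with median ratios of 2.72 and 2.46 in vehicle against 0.01 and -0.02 over all genes. Gc and Apob were under 20 CPM in the rest of both vehicle libraries, as were Ttr before and Apoa1 after depletion. They were considered because of their level in the members, so the count and the medians lean upward from that filter. Alb, serum albumin, stood at 236, 243, 67.5 and 97.9 CPM in the members and 30.9, 37.7, 22.5 and 31.5 CPM in the rest. It was higher in the members of every library, and its level in members was lower in both libraries labelled tamoxifen. Ttr, transthyretin, the partner of Rbp4 in plasma, was at 185, 161, 28.1 and 37.4 CPM in the members and 13.9, 27.4, 1.30 and 3.26 CPM in the rest. In the library labelled tamoxifen before depletion 2 cells gave 94.6% of the Ttr UMIs, and without them the level was 1.52 CPM. Thinned to 2000 UMIs, 33.3, 24.2, 15.2 and 11.3% of members held an Alb UMI (75.6, 71.5, 69.7 and 41.2% unthinned), against 2.80 to 4.21% of the rest and at most 0.813% of endothelial cells.

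A lipid carrier was also higher in the members. Apoe, the apolipoprotein of lipid particles, stood at 2541, 2754, 394 and 759 CPM in the members and 455, 756, 279 and 292 CPM in the rest. It was above the rest in all 4 libraries, by the smallest margin in the library labelled tamoxifen before depletion, at 0.50 on the log2 scale. In that library 2 cells gave 67.4% of the Apoe UMIs, and without them the level was 128 CPM, below the rest.

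Gut-type genes were called higher in 4 of 7 considered (Vil1, Fabp1, Gpa33 and Guca2a), against 1.85% of all genes considered. The median ratios were 1.41 and 1.39 in vehicle, against 0.01 and -0.02 over all genes. Vil1, Fabp1 and Guca2a were under 20 CPM in the rest of both vehicle libraries. They were considered because of their level in the members, so the count and the medians lean upward from that filter. Guca2a, the guanylin hormone of gut epithelium, was at 218, 93.1, 187 and 69.7 CPM in the members and 13.3, 17.0, 4.88 and 6.68 in the rest. Without the 2 highest cells of each library it was at 66.6, 78.3, 15.9 and 36.3 CPM. Vil1, the microvillus protein villin, was at 52.4, 43.6, 9.11 and 17.3 CPM in the members and 15.6, 16.1, 8.18 and 8.66 in the rest. The members were above the rest in each library for both genes, narrowly for Vil1 labelled tamoxifen before depletion. Of 5 gastric genes considered, Gkn2 was called higher.

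Of 6 mucous and goblet genes considered, Foxa3 and Tff3 were called higher and Muc1 lower. Foxa3, a forkhead factor of liver and secretory cells, was at 31.0, 31.2, 17.5 and 18.9 CPM against 12.5, 13.2, 11.6 and 10.8 CPM in the rest. Tff3, a trefoil peptide of goblet cells, was at 129, 37.8, 631 and 133 CPM, but from only 6, 36, 2 and 6 cells. Its 2 highest cells gave 90.9, 22.2, 100 and 94.1% of its UMIs, so its level described single cells. Among 5 airway genes considered, Muc5b was called higher and Cbr2 lower. By the smaller of both vehicle ratios Tff3 stood first in the programme, followed by Gap43, a growth cone protein, at 3.42 and 3.02, and Lce3f, a cornified envelope protein, at 3.83 and 2.97.

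**Figure D3:**
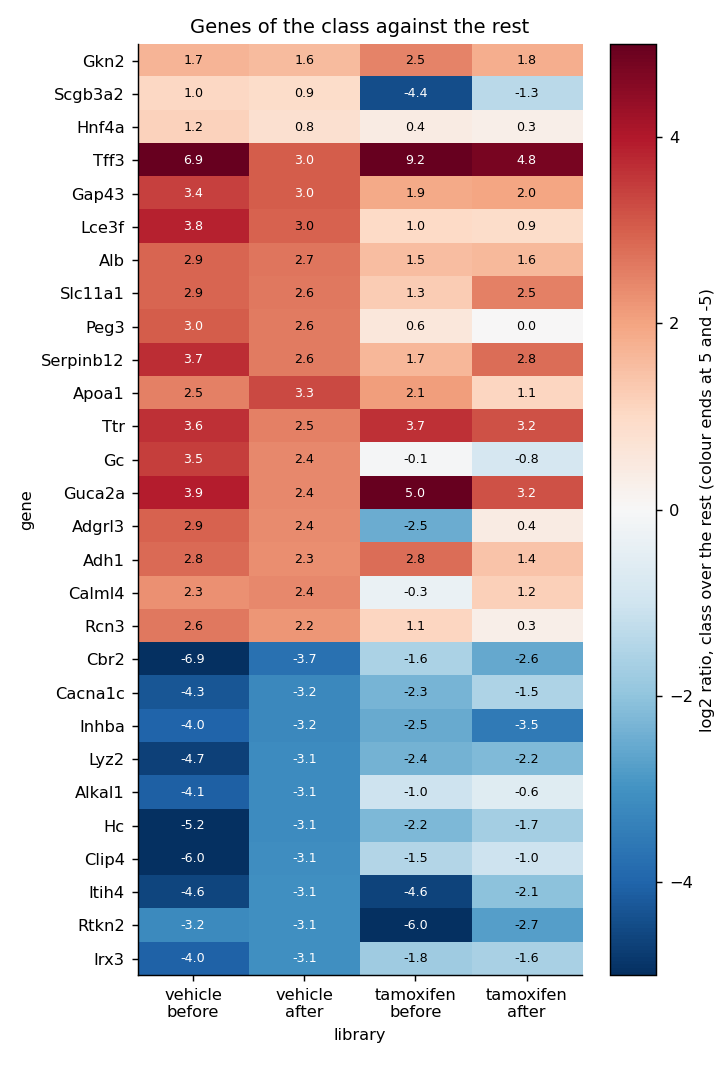
The grid gives the log2 ratio of summed CPM in members over the rest for 28 genes (rows) in the 4 libraries (columns), red for higher in members and blue for lower. Genes from Tff3 to Rcn3 and from Cbr2 to Irx3 were called in vehicle, where the cells of each row share 1 colour, while Gc, Adgrl3, Peg3, Calml4 and Scgb3a2 turn pale or blue in the libraries labelled tamoxifen.

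Some alveolar genes were lower in the members by more than 2-fold, and surfactant protein C by less. Of 18 type 2 genes, 8 were called lower (Lamp3, Slc34a2, Lyz2, Etv5, Hc, Chil1, Egfl6 and Fasn), with a median ratio of -1.25 and -0.93 in vehicle. Lyz2, the lysozyme of type 2 cells and macrophages, stood at 203.5, 475, 574 and 564 CPM in the members and 5196, 4221, 2996 and 2634 CPM in the rest. It was therefore below the rest in all 4 libraries. Sftpc, surfactant protein C, was at 35300, 39260, 49450 and 56080 CPM in the members and 60910, 65920, 63550 and 66510 CPM in the rest, and was not called. It was seen in every member, and in 93.6, 98.4, 100 and 99.1% after thinning to 2000 UMIs. Endothelial cells gave 38.8, 98.6, 34.9 and 96.7% for Sftpc at that depth, so its detection in members is not above background after depletion.

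Of 9 type 1 genes considered, 5 were called lower (Hopx, Rtkn2, Clic5, Akap5 and Col4a3). Hopx, a cofactor that marks type 1 cells, was at 30.8, 38.1, 26.6 and 26.9 CPM in the members and 114, 107, 131 and 85.0 CPM in the rest. Cbr2, a carbonyl reductase, stood first among the genes called lower, with 1.53 and 16.7 CPM in the members and 310 and 235 CPM in the rest. Inhba, a subunit of activin, was at 1.53, 2.69, 2.28 and 0.825 CPM against 40.0, 33.3, 17.9 and 19.9 CPM in the rest.

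Other lists hardly moved. None of 17 endoplasmic reticulum folding genes was called, with medians of 0.10 and 0.20 in vehicle, although Agr2 belongs to the same compartment. None of 12 genes of mitogen-activated kinase (MAPK) output and none of 3 G2/M genes was called. Of 12 immediate early and heat shock genes, Dnajb1, an HSP40 co-chaperone, was called higher. Of 13 lineage regulators, Foxa3 was called higher and Onecut2 lower, and Nkx2-1, the lung lineage factor, stood at 190, 164, 175 and 185 CPM against 274, 219, 263 and 229 CPM in the rest. Of 11 transitional genes, Tnip3 was called lower. Cells with at least 2 G2/M UMIs after thinning were 10.3, 8.65, 12.1 and 12.5% of members (87.2, 81.1, 90.9 and 81.4% unthinned) and 9.59, 7.09, 8.17 and 7.96% of the rest.

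**Figure D4:**
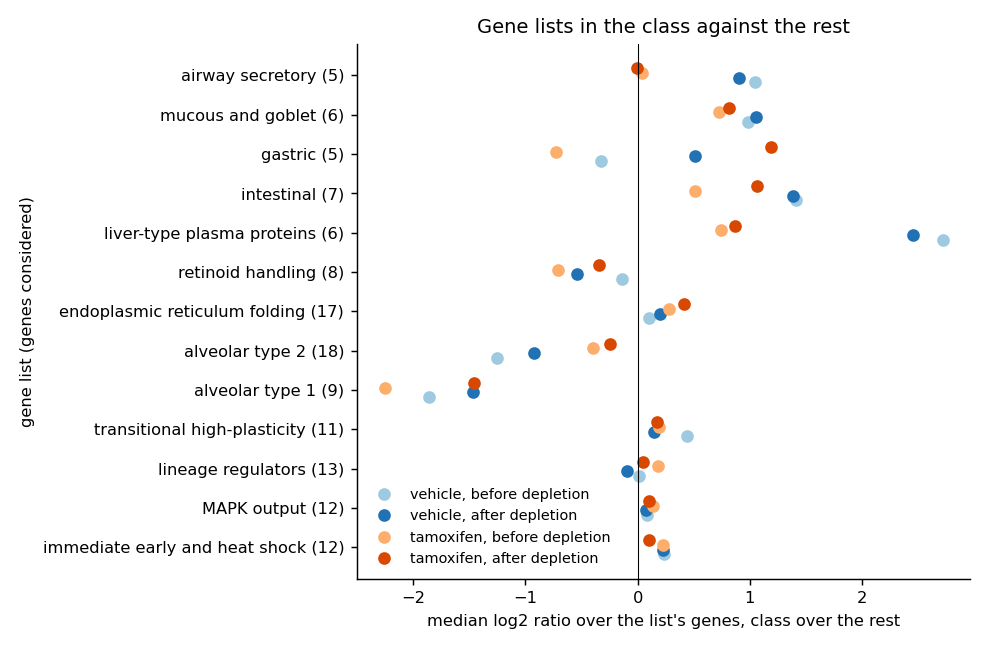
Dots give the median log2 ratio of members over the rest for each gene list with at least 5 genes considered (number in brackets), 1 colour per library. The liver-type list lies at 2.72 and 2.46 in vehicle and at 0.75 and 0.87 in the libraries labelled tamoxifen, and the alveolar lists lie below 0 in all 4. Genes were considered by the higher of both sums in vehicle, which widens the vehicle medians.

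Promoters of the programme genes were searched for the letters of an HNF4 site. They are shown because Hnf4a is the gene the study targets. The search covered 250 bases before to 50 after each start in RefSeq sequence (GRCm38.p6), on both strands, for CAAAGTCCA. Of the 126 genes called higher, 96 had a promoter in the set, and 3 of them (3.12%) held the letters, against 0.403% of the promoters of all genes considered and 0.555% of all promoters. Cyp2c67 and Cyp2c68 are near-identical cytochrome genes side by side on chromosome 19, so their sequences are not independent and their counts may share reads. Letters of forkhead (TGTTTAC) and AP-1 (TGACTCA) sites were searched too. They were in 5.21 and 6.25% of the same 96 promoters, against 3.17 and 4.83% for all genes considered. For genes called lower the HNF4, forkhead and AP-1 shares were 0.637, 4.46 and 6.37%. The windows below run 5′ to 3′ on the strand of the gene, with the HNF4 match in capitals.
Cyp2c67 (chr19:39649134-39649192): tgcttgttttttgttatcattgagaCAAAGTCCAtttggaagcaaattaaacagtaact
Cyp2c68 (chr19:39741145-39741203): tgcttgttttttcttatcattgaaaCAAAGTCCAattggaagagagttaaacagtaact
Tmem150b (chr7:4725290-4725348): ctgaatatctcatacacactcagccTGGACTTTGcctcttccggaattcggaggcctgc
All 3 lie on the minus strand, and the Tmem150b match is the reverse complement.

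The 3 genes with the HNF4 letters were named after their values were seen. Cyp2c68 was at 49.4, 34.7, 3.80 and 5.88 CPM in the members and 7.08, 7.87, 4.23 and 4.95 CPM in the rest. Cyp2c67 was at 36.1, 24.0, 1.52 and 5.77 CPM in the members, and Tmem150b at 41.2, 44.2, 13.7 and 17.5 CPM. Each was lower in both libraries labelled tamoxifen than in both vehicle libraries. The HNF4 letters were also present in 2 of 54 promoters (3.70%) of genes higher in members labelled tamoxifen. A match is only a run of letters, and no binding was measured.

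In the members labelled tamoxifen the programme genes had median ratios smaller than the 2-fold by which they were chosen in vehicle. Smaller ratios in libraries that took no part in the choice follow in part from the choice itself. How much the treatment added was not tested. Of the 126 genes higher in vehicle, 24 were at least 2-fold higher in both libraries labelled tamoxifen, 94 were higher in both by any amount, 23 were mixed and 9 were lower in both. Their median ratio there was 0.55 and 0.72, against -0.06 and -0.03 over all genes. Of the 210 genes lower in vehicle, 61 were at least 2-fold lower in both and 194 were lower in both by any amount, with medians of -0.96 and -0.81. Called on the libraries labelled tamoxifen alone, 29 of 6715 genes were higher (0.432%) and 74 lower (1.10%), and for 18 and 56 of these the vehicle members differed from the rest in that direction by 2-fold or more in each library. The library labelled tamoxifen before depletion gave only 33 members, so its sums are the least precise, with 3 UMIs corresponding to 2.28 CPM.

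Genes that marked the class in vehicle and not in the other libraries are read from their own values. Gc, the vitamin D-binding protein of plasma, was at 42.7, 29.3, 2.28 and 1.03 CPM in the members and 2.98, 4.75, 2.40 and 2.61 CPM in the rest. Adgrl3, an adhesion G protein-coupled receptor, was at 304, 239, 0.759 and 17.9 CPM in the members and 39.0, 45.3, 8.75 and 13.1 CPM in the rest. Tmeff2, a transmembrane protein with follistatin domains, chosen after its values were seen, was at 152, 142, 24.3 and 28.9 CPM against 46.2, 58.2, 85.5 and 105 CPM. For these 3 genes the members labelled tamoxifen were near or below the rest, except Adgrl3 after depletion, which was above it. The difference between treatments in these ratios was not tested.

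The members were then compared between treatments within each portion. Of 6584 genes, 121 were at least 2-fold lower in the members labelled tamoxifen in both portions (1.84%) and 63 higher (0.957%). Without the 2 highest cells of each gene 35 were higher, and in the post-depletion pair alone 105 were. In the rest, the same comparison gave 33 of 6794 lower (0.486%) and 27 higher (0.397%). Members and rest differed in cell number and in summed UMIs, with 1317583 UMIs in the smallest members' sum and 17806273 in the smallest sum of the rest. Both comparisons used the vehicle members that also defined the programme, so levels are given side by side and no overlap is read from them.

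The plasma proteins of liver type were the list with the largest share called lower in the members labelled tamoxifen. Of 7 liver-type genes considered, 4 were called lower (Ttr, Alb, Apob and Gc) and none higher, with medians of -2.06 and -1.57 against -0.12 and -0.02 over all genes and -0.23 and -0.25 for the list in the rest. Gc and Apob were under 20 CPM in both members' sums labelled tamoxifen, so they entered through vehicle alone and could not be called higher. The count and the medians in the members lean downward from that filter. Gc was 18.8 times higher in vehicle members before depletion (6.31 to 91.9, on 3 UMIs in the other library) and 28.4 times after it (15.4 to 59.5). Apob, the scaffold of lipoproteins, was at 46.5, 44.5, 2.28 and 14.3 CPM in the members and at 16.3, 14.6, 23.3 and 21.2 in the rest. In the rest Apob was thus not lower with the tamoxifen label. Ttr was lower in the rest by about as much as in the members. Its log2 ratios of tamoxifen over vehicle were -2.70 and -2.74 there, against -2.675 and -2.08 in the members. Alb and Gc were lower in the rest by less than in the members, at -0.44 and -0.25 for Alb and -0.23 and -0.67 for Gc. Apoe was 6.45 times (5.91 to 7.06) and 3.63 times (3.55 to 3.72) higher in vehicle members, and Apoc2, another apolipoprotein, had 0 UMIs before depletion in the members labelled tamoxifen, at least 17.3-fold lower against a floor of 3 UMIs. In the vehicle members before depletion 2 cells gave 67.1% of the Apoc2 UMIs, and without them the level was 12.97 CPM in place of 39.4. Apoc2 and Apoe were lower in the rest too, with log2 ratios of -3.05 and -2.45 for Apoc2 and -0.71 and -1.37 for Apoe.

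Some gut genes were lower as well. Of 7 gut genes considered, Vil1, Fabp1 and Gpa33 were called lower, with a median of -0.80 and -0.98, and the list in the rest gave -0.78 and -1.11. The list was thus about as much lower in the rest as in the members. Vil1 and Fabp1 also entered through vehicle alone. Fabp1, the fatty acid-binding protein of liver and gut, was at 23.7, 32.4, 0.759 and 1.55 CPM in the members, and at 7.12 CPM in the first without its 2 highest cells. Of 5 airway genes considered, Scgb3a2 was called lower. Scgb3a2 was 32.3 times (16.3 to 75.0) and 6.03 times (5.46 to 6.68) higher in vehicle members, against log2 ratios of 0.66 and -0.32 for tamoxifen over vehicle in the rest.

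The named genes with the largest negative ratios had few UMIs or few cells under the tamoxifen label. Adgrl3 had 1 UMI in the members labelled tamoxifen before depletion, where the ratio of 401 carries an interval of 71.8 to 15850, and after depletion it was 13.3 times higher in vehicle (11.5 to 15.6). Kcnh7, a potassium channel, was at 47.1, 49.6, 2.28 and 1.44 CPM, and Peg3, an imprinted zinc finger gene, at 80.9, 105, 10.6 and 9.79 CPM. Ghr, the growth hormone receptor, was at 107, 56.3, 2.28 and 7.53 CPM. These 4 genes were lower in both members' sums labelled tamoxifen and were lower in the rest too, where the Kcnh7 log2 ratios were -2.895 and -3.13. Spink1, a trypsin inhibitor, was at least 13.2-fold lower before depletion and 39.4 times lower after it (21.9 to 79.0), and Serpinb2, a plasminogen activator inhibitor, at least 27.3-fold and 40.4 times (18.5 to 110). In the vehicle members before depletion 2 cells gave all 244 UMIs of Serpinb2 and 75.4% of those of Spink1. Without them Spink1 was at 7.38 CPM. Spink1 and Serpinb2 were lower in the rest too. The log2 ratios of tamoxifen over vehicle there were -1.958 and -4.128 for Spink1 and -2.288 and -1.391 for Serpinb2. After depletion the members' ratios were -4.418 for Spink1, near that of the rest, and -4.005 for Serpinb2.

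**Figure D5:**
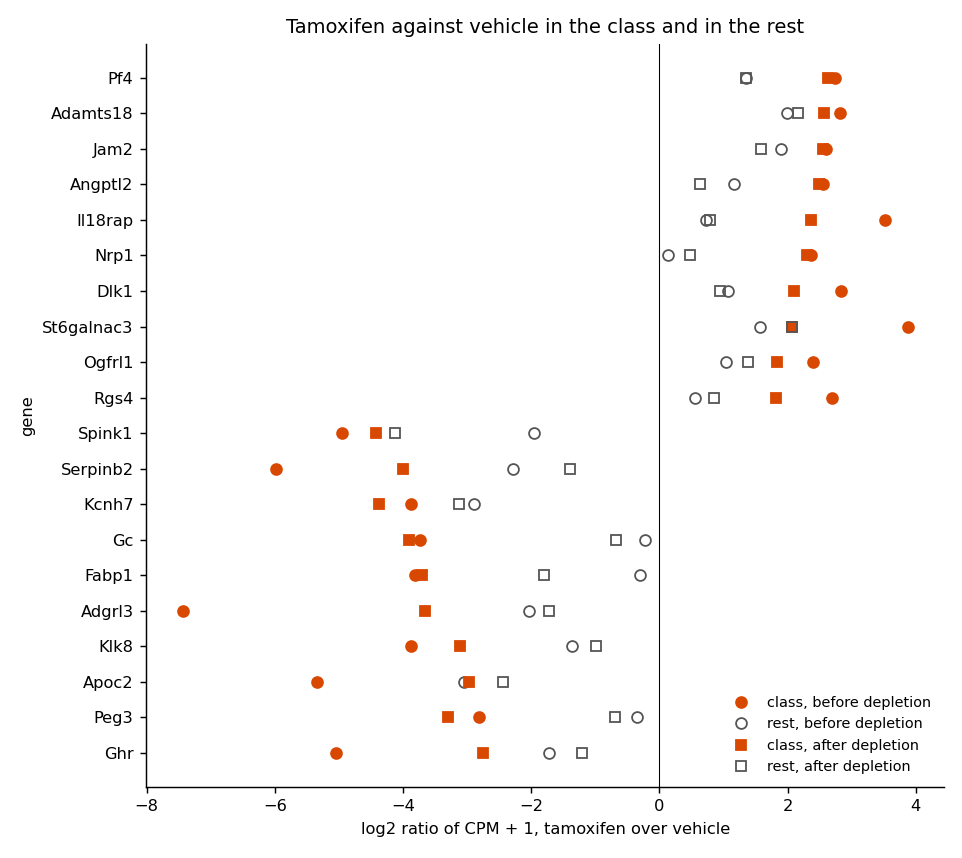
Points give the log2 ratio of tamoxifen over vehicle (CPM + 1) for the 20 named genes, filled for members and open for the rest, circles before and squares after depletion. Ratios of Spink1, Serpinb2 and Apoc2 before depletion rest on 0 UMIs in the members labelled tamoxifen and depend on the added 1 CPM. The genes were chosen for large ratios in the members, so the wider spread of the filled points follows from that choice.

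Pf4, Dlk1 and Nrp1 were among the genes higher in the members labelled tamoxifen. Pf4, the platelet chemokine CXCL4, was at 99.5, 113, 672 and 701 CPM in the members and 148, 140, 379 and 358 CPM in the rest. Dlk1, an imprinted ligand related to Notch ligands, was at 255, 278, 1830 and 1196 CPM in the members and 511, 480, 1074 and 920 CPM in the rest. Both stood below the rest in vehicle and above it in the libraries labelled tamoxifen. For Dlk1 before depletion this rested on 2 cells with 48.3% of the UMIs, and without them the members labelled tamoxifen were at 946 CPM, below the rest. Nrp1, the semaphorin and VEGF co-receptor, was at 28.0, 21.2, 149 and 108 CPM in the members and 178, 131, 195 and 183 in the rest, so it approached the rest without reaching it. Thinned to 2000 UMIs, 14.1, 16.8, 42.4 and 41.7% of members held a Pf4 UMI (75.6, 65.9, 81.8 and 81.2% unthinned), against 11.7 to 22.8% of the rest and at most 2.44% of endothelial cells.

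Adamts18, Jam2, Angptl2, Il18rap, St6galnac3, Ogfrl1 and Rgs4 completed the 10 named genes that were higher. Their members' levels before depletion ran from 2.54 to 26.2 CPM in vehicle and from 21.3 to 399 CPM in the library labelled tamoxifen. In the rest too, log2 ratios of tamoxifen over vehicle were 1.99 and 2.17 for Adamts18, 1.90 and 1.59 for Jam2, 1.58 and 2.07 for St6galnac3 and 1.04 and 1.38 for Ogfrl1. They were 1.17 and 0.63 for Angptl2, 0.72 and 0.79 for Il18rap and 0.56 and 0.85 for Rgs4. Of 17 type 2 genes considered, Lamp3 and Slc34a2 were called higher and Napsa lower. Lamp3, a lamellar body protein, was at 100, 105, 323 and 284 CPM in the members and 479, 312, 331 and 287 CPM in the rest. The members labelled tamoxifen thus stood at the level of the rest for Lamp3, and the median ratio of members over the rest for the type 2 list was -0.40 and -0.24 there. Tff3 was also called higher, from the few cells given above. Of the transitional and MAPK lists, F3, tissue factor, and Fosl1, a Fos family member, were called lower, and none of the endoplasmic reticulum, gastric, lineage regulator, immediate early, type 1 or G2/M genes was called.

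Because the mixture of Rbp4-led and Phgr1-led cells differed between treatments, the comparison was repeated in cells past the threshold by 1 gene. In cells chosen on Phgr1 alone, 82 of 6505 genes were higher and 170 lower, of which 32 and 68 were among those of the full rule. All 20 named genes kept their direction there, and Gc, Klk8, Peg3, Spink1, Serpinb2 and Dlk1 no longer passed in both portions. Before depletion only 20 vehicle cells and 17 labelled tamoxifen passed on Phgr1 alone, below the minimum of 30 members set for such counts. In cells chosen on Rbp4 alone, 49 of 6545 genes were higher and 82 lower, 11 and 58 of them shared. Only 5 such cells were present in the library labelled tamoxifen before depletion. The part of the changed mixture in the treatment ratios was otherwise not tested.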

How the data were processed

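Single-cell RNA was counted in 4 libraries, and the authors deposited raw UMI counts for each barcode, not normalized. Cell Ranger 7.0.1 made them per the file headers, while the submitters' processing notes name Cell Ranger 7.2.0 and the mm10 build. Per the labels' protocols the cells were frozen, thawed, stained with DAPI, sorted as live single cells and run with the 10x 3′ version 3 chemistry. The use of intronic reads and strand is not given in the sources used here. One allele of the mice's genotype and some results for single genes are not reported here.

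Of 32289 features, symbols with several identifiers were added together, giving 32249, of which 32158 matched GENCODE M21 (GRCm38), the source of gene coordinates. Counts were summed per library over members and over the rest and scaled to CPM. Ratios are log2 with 1 CPM added, and calls need 20 CPM and 2-fold the same way in both libraries or pairs, a rule of size checked on simulated data. With 1 library per group no test was possible. Named genes are the 15 higher and 10 lower of the programme and the 10 each way between treatments with the largest smaller ratio, plus the genes of 24 lists. Members and lists were chosen with earlier results of these data known. Shares carry exact binomial (Clopper-Pearson) intervals, summed counts exact Poisson ones, and ratios of summed counts exact conditional binomial ones, all at 95%. Ratios of shares carry 95% intervals on the log scale. Endothelial cells were kept barcodes with at least 2 UMIs of Cdh5, Pecam1 and Kdr and none of Ptprc, Epcam and Col1a2. Scrublet (scanpy 1.11.5) found no doublets by its own threshold after depletion, which counts as a failure. Doublets were therefore not removed, and a score above 0.25, held by 0, 11, 0 and 1 members, served as an alternative. Python 3.11.15, numpy 2.4.6, scipy 1.17.1 and pandas 2.3.3 were used. Alternatives covered the rule's threshold, cell filters, thinning, the CPM minimum, the fold, and the libraries that make the call.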

Additional observations from a re-analysis of the deposited data

Results flagged for a closer look

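Among the genes named in the text, several had members above the rest in both vehicle libraries and below it in both libraries labelled tamoxifen. The mean log2 ratio of members over the rest, tamoxifen minus vehicle, was -3.854 for Scgb3a2, -3.369 for Gc, -3.281 for Tmeff2, -3.216 for Apob, -3.153 for Serpinb2, -2.324 for Klk8 and -0.8925 for F3. The opposite order was seen for Il18rap (2.183), Angptl2 (1.62), Rgs4 (1.554), Dlk1 (1.468) and Pf4 (1.337).

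Genes were also singled out because tamoxifen over vehicle went one way in the members and the other way in the rest, in both portions. The difference given for them is the same quantity as above, read in the other order. Tmeff2 and Apob met both criteria, so their values appear again and are not a separate observation. The mean log2 difference, members minus the rest, was below 0 for Tmeff2 (-3.281), Apob (-3.216), Lce3f (-2.455) and Rcn3 (-1.753). It was above 0 for Clip4 (3.282), Cbr2 (3.273), Alkal1 (2.806), Hc (2.183), Lamp3 (1.878), Irx3 (1.845), Cacna1c (1.823), Lyz2 (1.605), Chil1 (1.468), Etv5 (1.133) and Muc1 (0.7953). In the members labelled tamoxifen before depletion, 2 cells gave 96.4% of the Cbr2 UMIs and 90.9% of those of Irx3. Without them the levels were 1.52 and 0.759 CPM, and vehicle before depletion without its own 2 highest cells was at 1.02 and 0.509 CPM. Clip4 had 2 UMIs in the vehicle members before depletion.

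None of these differences was tested, since each group holds 1 library, and many of the genes were named for their size in one of the comparisons. Gc rests on 3 and 10 UMIs in the members labelled tamoxifen, Serpinb2 on 0 and 6. Before depletion Apob rests there on 3 UMIs, Klk8 on 2 and Scgb3a2 on 8. All 244 Serpinb2 UMIs of the vehicle members before depletion came from 2 cells.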

How the results depend on the processing

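No paired analysis was possible because each group holds 1 library, so the groups share only 1 replicate number and a block would leave no residual degrees of freedom. The ratio of shares, labelled tamoxifen over vehicle, stayed below 1 under every alternative run, but these ratios carry no intervals. Before and after depletion it was 0.773 and 0.554 at a sum of 5 per 10000 UMIs and 0.900 and 0.529 in cells thinned to 2000 UMIs. After depletion it was 0.220 at a sum of 20. In the thinned cells before depletion the shares were close, at 11.9% in vehicle and 10.7% labelled tamoxifen. Chosen after seeing the data, 1 gene alone gave 0.105 and 0.0983 (Rbp4), 0.189 and 0.262 (Agr2) and 0.804 and 0.782 (Phgr1). Before depletion these rest on 45 vehicle cells and 5 labelled tamoxifen for Rbp4, 5 and 1 for Agr2, and 20 and 17 for Phgr1.

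Counts of genes depended on the settings. For programme higher, programme lower, treatment higher and treatment lower, they were 126, 210, 63 and 121 as reported, of 6805 and 6584 genes considered. A minimum of 50 CPM gave 63, 102, 35 and 54, of 3674 and 3545 genes. With no minimum they were 281, 466, 146 and 363, of 32223 genes. At 4-fold they were 17, 37, 8 and 24, of 6805 and 6584 genes. A minimum of 10 CPM gave 184 of 8847 genes lower between treatments. The number of genes considered thus changed with the CPM minimum, and the counts with it. Thinning gave 134 programme genes lower and 33 higher between treatments. Genes higher between treatments numbered 99 with both portions added, 105 with the post-depletion pair alone and 35 without the 2 highest cells of each gene, the last 2 chosen after seeing the data. Called in the libraries labelled tamoxifen, the programme held 29 higher and 74 lower genes, and there the ratio of Gc was -0.053 before and -0.83 after depletion, while Adgrl3 was at -2.47 before and 0.43 after it, with a mean of -1.02. Of 45 results for named genes, 43 kept their direction under every alternative and 15 also kept their size. The cause of these shifts was not tested. The 33 members labelled tamoxifen before depletion limit the depth most, with 3 UMIs at 2.28 CPM.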
